A study of Mus musculus with 12 samples.

Results

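Total mRNA of adult mouse neural stem cells (NSCs) was compared between low folic acid (LF, 1.5 µM) and medium folic acid (MF, 10 µM), the control dose of the study. The comparison holds the 4 total mRNA libraries of these doses, 2 per dose, out of 12 libraries in the series. The other 8 are 2 total mRNA libraries at high folic acid (HF, 80 µM) and 6 libraries of polysome mRNA, the mRNA that sediments with several ribosomes, at the same 3 doses. The members are all genes of these tables. Of 43432 gene identifiers, 13912 had enough counts to be tested.

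In every group the cells were WT and came from the subventricular zone of the lateral ventricles of male C57BL/6 mice of 6 to 8 weeks. They grew as a monolayer on poly-ornithine and laminin, with B27, EGF and bFGF, for 4 days at their dose, with fresh medium on day 2. The groups thus shared the growth factors that keep NSCs dividing and differed in folic acid. The labels call the replicates biological but do not say whether they came from separate animals or cultures, so the p-values measure only the spread between these libraries.

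Folate carries single-carbon units between metabolites. Cells take up folic acid, reduce it to tetrahydrofolate and use the loaded forms to build purines and thymidylate and to remake methionine, which supplies S-adenosylmethionine, the methyl donor for DNA, RNA and protein. Serine feeds carbon into the cycle through Shmt1 in the cytosol and Shmt2 in the mitochondrion. Dividing neural precursors need this supply for DNA synthesis.

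The libraries held between 20506797 and 23593252 counts, and mitochondrial mRNAs took 2.72% to 2.95% of them in the 6 total mRNA libraries. Nes, the intermediate filament of neural precursors, was at 401 and 357 TPM in LF and 431 and 412 TPM in MF. Sox2, a transcription factor that maintains NSCs, was at 115 and 102 TPM in LF and 100 and 107 TPM in MF. The labelled cell type thus carried both of its defining mRNAs in each library. Of 15 markers of microglia and macrophages, 8 had no count in any of the 4 libraries, and the 12 markers of endothelium summed to 3.67 to 5.47 TPM.

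In pairwise differences, replicates of a dose lay about as far apart as libraries of LF and MF did. The median gene with at least 1 CPM (counts scaled to the library total, with TMM) differed by 0.0886 on the log2 scale between the LF replicates and by 0.0762 between the MF replicates, against 0.0697 to 0.0924 for the 4 pairs of an LF and an MF library. Between the LF replicates, 12.5% of these genes differed more than 1.2-fold, against 8.92% between the MF replicates and 9.1% to 12.7% across the doses. On the first principal component of the 6 total mRNA libraries (34.3% of the variance) LF lay at -5.22 and -13.6, MF at 1.32 and -1.48 and HF at 13 and 6. Both LF libraries thus lay below both MF libraries on this axis and both HF libraries above them, an order that was not tested. LF replicate 2 was the library farthest from MF on this axis.

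To ask which mRNAs changed in abundance when folic acid was lowered, LF was tested against MF with edgeR. The only gene called was Gm6851, a processed pseudogene, which was higher in LF. This is 0.00719% of the genes tested. A call needed more than a 1.2-fold difference and an adjusted p below 0.05. No protein-coding gene passed. Without adjustment, 872 genes (6.27% of those tested) had p under 0.05, 410 higher (2.95%) and 462 lower (3.32%) in LF. DESeq2 on the same 6 libraries called 2 genes, both lower in LF, namely Dchs1 and the predicted gene Gm27029, which is named here after its values were seen, and it gave 297 genes at an unadjusted p under 0.05. The count also moved with single libraries. Without LF replicate 1 it was 70, of which 11 were higher in LF, and without LF replicate 2 it was 9. Leaving out an MF library left 1 call each time, and that call was Gm27029 without replicate 1 and Tom1 without replicate 2.

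The differences were also small. The median log2 fold change over all genes was 0.001, and 87.7% of the genes differed less than 1.2-fold. For 78.2% of the genes the 95% interval of the fold change lay wholly within 1.5-fold in either direction, and for 51.1% within 1.2-fold. This precision followed the level of the gene. The share within 1.5-fold was 0.0803% of 1245 genes under 1 CPM, 44.3% of 3036 genes from 1 to 10 CPM, 98.8% of 7142 genes from 10 to 100 CPM and 99.4% of 2489 genes above that. A change of 1.5-fold could thus be bounded in most genes above 10 CPM and in almost none under 1 CPM.

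**Figure D1:**
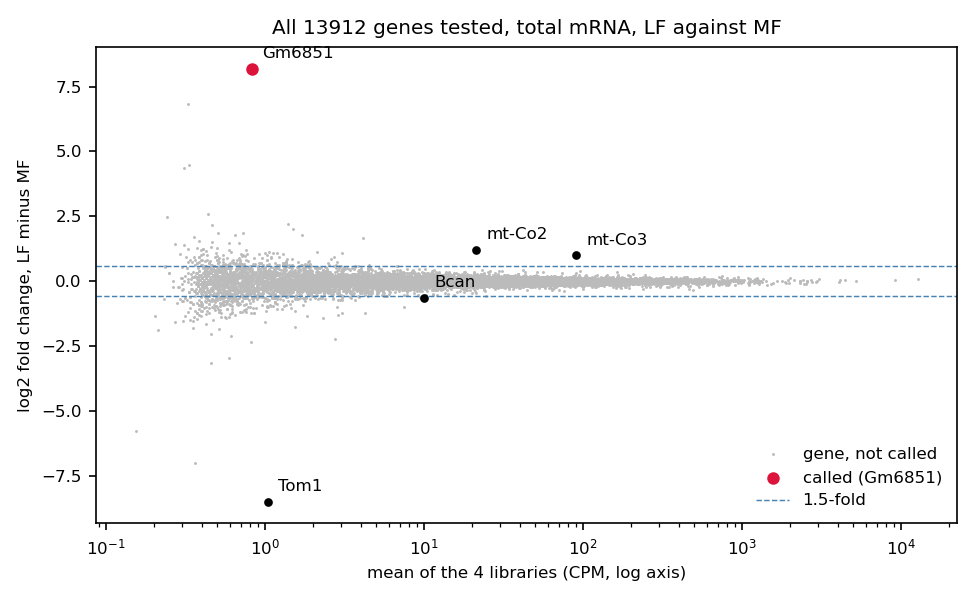
Log2 fold change of LF against MF for each of the 13912 genes tested, on the vertical axis, against the mean level of the 4 libraries in CPM on a log axis. Red marks Gm6851, the called gene, dashed blue lines mark 1.5-fold, and labelled black points are other genes of the text. The cloud narrows as the level rises, and above 10 CPM mt-Co2 and mt-Co3 are the genes outside the dashed lines.

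The called gene is a copy of another. Gm6851 (ENSMUSG00000056836) lies on chromosome 7 from 40190937 to 40191331 of mm10, on the plus strand. It is a processed pseudogene of Pin4 (ENSMUSG00000079480), a protein-coding gene for a peptidyl-prolyl isomerase of the parvulin family on chromosome X from 102119447 to 102127669. All 395 bases of the Gm6851 transcript aligned to a 489-base Pin4 transcript with 1 difference and no gap. The difference was A379T, with the Gm6851 base first and positions counted from the first base of the Gm6851 transcript. It corresponds to position 456 of the Pin4 transcript. The stretch around it (positions 367 to 391, chr7:40191303-40191327) is shown from the GENCODE transcripts because a read pair that lies within the aligned stretch can be told apart between both genes only if it covers this base. The differing base is in capitals.
Gm6851: tattattatggtAgaagggagaaaa
Pin4: tattattatggtTgaagggagaaaa

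Gm6851 was given 25.4 and 50.6 expected counts in the LF libraries and none in the MF and HF libraries. Pin4 took 395.6 and 375.4 counts in LF, 368 and 407 in MF and 451 and 412 in HF. The groups did not overlap for Gm6851, and Pin4 showed no such split. The mean of Gm6851 in LF was 1.66 CPM, 11.6-fold above a floor of 3 counts per library in MF. With LF replicate 1 alone this was 8.04-fold and with LF replicate 2 alone 15.1-fold. The floor covers counting error and not the division of reads with Pin4, so these folds are no lower bounds. The fitted log2 fold change of 8.19 (adjusted p = 0.0151) depends on the prior count and is no bound.

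The counts of both genes added up to a whole number in 12 of 12 libraries (within 0.02 counts). Summed, they were at 19.4 and 18.1 CPM in LF and 17.8 and 19.1 CPM in MF, so the groups overlapped. When each gene named for its p-value was summed with its near-identical copies before the test, an alternative chosen after the data were seen, the log2 fold change of Gm6851 with its copies was 0.02 (adjusted p = 0.984) and no gene was called, with 869 at an unadjusted p under 0.05. In polysome mRNA the split was the other way round. Gm6851 held 0 and 1.23 expected counts in the LF polysome libraries and 75.4 and 54.5 in the MF ones.

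A second gene was at 0 in both libraries of a dose and at 10 or more counts in both of the other. Tom1, an adaptor protein of endosomal sorting, had no count in LF, 74.1 and 11.8 expected counts in MF and 74.3 and 74.4 in HF. Its mean in MF was 15.6-fold above the floor of 3 counts per library in LF. With MF replicate 2 alone this was 4.25-fold and with MF replicate 1 alone 27.0-fold. The floor does not cover reads divided with the copy described next, so these folds are no lower bounds either. Tom1 did not pass the test (adjusted p = 0.789). The whole transcript of the processed pseudogene Gm5884, 1479 bases, was found unbroken in a Tom1 transcript. Gm5884, on chromosome 6 from 128644913 to 128646391, took 452 and 513 counts in LF and 398.9 and 482.2 in MF. Together both genes were at 20.8 and 21.8 CPM in LF and 22.9 and 23.2 CPM in MF, so LF stayed below MF but by far less, and the sum was whole in 12 of 12 libraries. The protein-coding gene was thus given fewer counts than the pseudogene in each library.

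**Figure D2:**
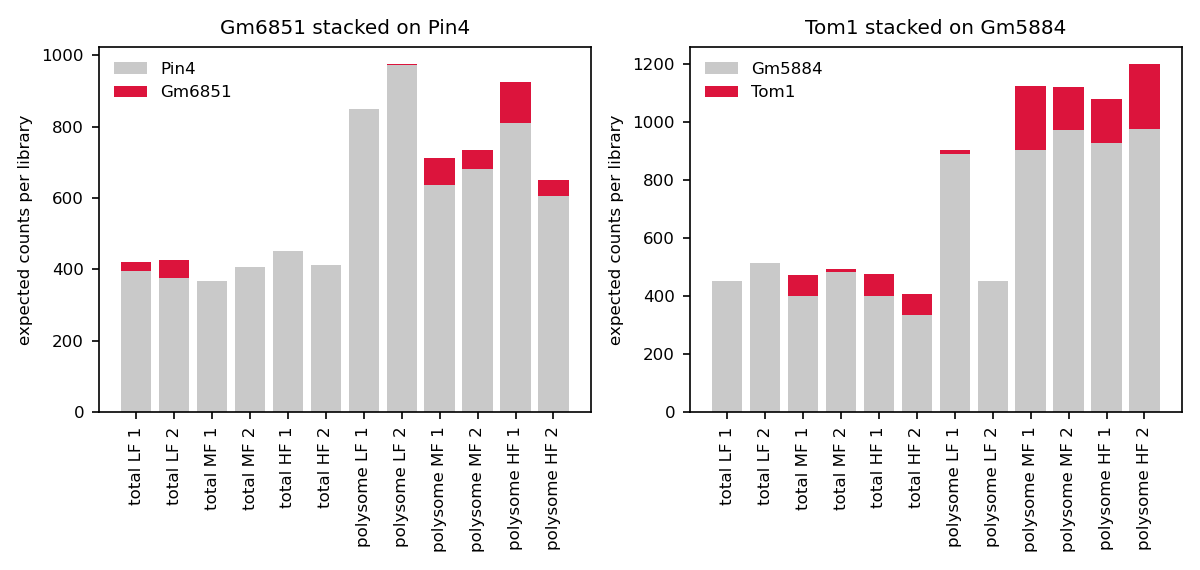
Expected counts of Gm6851 (red) stacked on Pin4 (grey), left, and of Tom1 (red) stacked on its copy Gm5884 (grey), right, in each of the 12 libraries. The red share moves between 0 and 223 counts, while in total mRNA of LF and MF the summed levels were 17.8 to 19.4 CPM on the left and 20.8 to 23.2 CPM on the right.

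The same was seen in mitochondrial mRNAs, which hold the most abundant genes with a large fold change. Mt-Co3, a subunit of cytochrome oxidase, was at 91.9 and 147 CPM in LF and 48.7 and 70.2 CPM in MF (log2 1.01 ± 0.575 SE), and mt-Co2 was at 36.9 and 22.4 CPM in LF and 6.49 and 18.7 CPM in MF (log2 1.22 ± 0.827 SE). Neither passed, although the groups did not overlap for either. Both have unprocessed pseudogenes in the nuclear genome, Gm28437 for mt-Co3 and Gm28661 for mt-Co2, that matched over the whole mRNA (783 and 684 bases) at 100% identity. Summed with its copies, mt-Co3 was at 4455 and 4663 CPM in LF and 4298 and 4484 CPM in MF, and mt-Co2 at 4166 and 4259.9 CPM in LF and 3974 and 4197 CPM in MF. The groups overlapped after summing in both. No copy was found for mt-Cytb, which was at 5141 and 5378 CPM in LF and 4993 and 5358 CPM in MF (log2 0.02 ± 0.0445 SE), nor for mt-Nd1 (log2 0.04 ± 0.0443 SE). Of the 13 mitochondrial mRNAs, 1 was at an unadjusted p under 0.05, mt-Nd4 (log2 0.10).

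The protein-coding genes nearest to a call are described next, as the 10 smallest p-values on each side among 11883 with a mean of at least 1 CPM. None passed, and their adjusted p ranged from 0.0646 to 0.549. The LF and MF libraries did not overlap in any of these 20 genes, which were chosen by p, while over all genes tested they did not overlap in 35.2%. Fold changes were 1.11 to 1.51 for the genes higher in LF and 1.16 to 2.35 for those lower.

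On the lower side, Bcan, which encodes brevican, a chondroitin sulfate proteoglycan of the brain matrix, was at 8.23 and 7.34 CPM in LF and 12.9 and 11.2 CPM in MF (log2 fold change -0.63 ± 0.13 SE, adjusted p of 0.216). Loxl2, a lysyl oxidase that crosslinks collagen, was at 9.84 and 8.57 CPM in LF and 12.6 and 14.0 CPM in MF (log2 -0.54 ± 0.12 SE). Dchs1, a large cadherin that binds Fat4 on neighbouring cells, was at 444 and 383 CPM in LF and 514 and 508 CPM in MF (log2 fold change -0.31 ± 0.059 SE, adjusted p of 0.221). In each of these genes both LF libraries lay below both MF libraries. Dchs1 was also the gene that DESeq2 called with 6 libraries and with the 4 LF and MF libraries alone.

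Grm3, a metabotropic glutamate receptor, was at 19.5 and 16.2 CPM in LF and 24.8 and 24.3 CPM in MF (log2 -0.46 ± 0.096 SE). Unc5b, a receptor for netrin, was at 335 and 306 CPM in LF and 381 and 360 CPM in MF (log2 -0.21 ± 0.05 SE). Ttyh2, of the tweety family of membrane proteins, was at 42.3 and 35.4 CPM in LF and 52.3 and 46.9 CPM in MF (log2 -0.35 ± 0.082 SE). LF replicate 2 was the lower of the LF libraries in each.

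Tubb2a, a β-tubulin, was at 155 and 136 CPM in LF and 172 and 179 CPM in MF (log2 -0.27 ± 0.056 SE). Its counts are uncertain, since Tubb2b matched over 1350 bases at 96.4% identity, and the log2 fold change of both summed was -0.18.

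Gm29609 is annotated as protein-coding on chromosome 5 from 31144739 to 31179911 and had the smallest adjusted p of the 20 (0.0646). It was at 2.21 and 2.84 CPM in LF and 5.62 and 6.29 CPM in MF (log2 -1.23 ± 0.21 SE). In TPM, which is scaled for length, the difference was smaller, at 2.91 and 2.63 in LF and 3.13 and 4.08 in MF. Its value is thus uncertain. A Gtf3c2 transcript of the annotation matched it over 894 bases without a difference, and the gene identifier of that transcript was not among those counted. Gm20605 spans Lrch4 and Sap25 on the same strand and was at 7.50 and 7.38 CPM in LF and 13.0 and 9.90 CPM in MF (log2 -0.62 ± 0.14 SE). Summed with Lrch4 and Sap25 its log2 fold change was -0.08. The value of Gm20605 is thus not that of a single gene.

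On the higher side, Prex2, an exchange factor that activates Rac, had the smallest p. It was at 48.8 and 47.6 CPM in LF and 37.4 and 38.7 CPM in MF (log2 fold change 0.34 ± 0.067 SE, adjusted p of 0.215). Prss23, a secreted serine protease, was at 199 and 214 CPM in LF and 168 and 181 CPM in MF (log2 0.24 ± 0.053 SE). Prss23 overlaps an antisense gene, Prss23os, at 24.2 and 33.1 CPM in LF and 31.9 and 32.1 CPM in MF, and the sources used here do not state whether strand entered the counting, so its value is uncertain. Pter was at 94.8 and 104 CPM in LF and 79.3 and 81.6 CPM in MF (log2 0.30 ± 0.071 SE).

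Gstm2, a glutathione S-transferase, was at 26.2 and 27.3 CPM in LF and 17.4 and 21.8 CPM in MF (log2 0.45 ± 0.11 SE). Acer3, an alkaline ceramidase, was at 20.1 and 20.5 CPM in LF and 15.3 and 16.5 CPM in MF (log2 0.35 ± 0.096 SE). Col28a1, a collagen chain, had the largest fold of the higher genes, at 7.64 and 8.53 CPM in LF and 5.48 and 5.26 CPM in MF (log2 0.59 ± 0.16 SE). Both LF libraries lay above both MF libraries in each of these genes.

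Lats2, a kinase of the Hippo pathway, was at 105 and 118 CPM in LF and 93.7 and 97.5 CPM in MF (log2 0.22 ± 0.06 SE). Trp53inp1, a target of p53, was at 469 and 474 CPM in LF and 412 and 429 CPM in MF (log2 0.17 ± 0.045 SE). H3f3a, which encodes the histone variant H3.3, was at 750 and 771 CPM in LF and 675 and 668 CPM in MF (log2 0.18 ± 0.045 SE). Rpl15, a protein of the large ribosomal subunit, was at 593 and 615 CPM in LF and 543 and 544 CPM in MF (log2 0.15 ± 0.042 SE). The processed pseudogene Rpl15-ps3 matched Rpl15 over 615 bases without a difference and took 88.5 and 123 CPM in LF and 126 and 117 CPM in MF, and the log2 fold change of Rpl15 summed with its copies was 0.09. The summed counts of Rpl15 and Rpl15-ps3 were whole (within 0.02) in 7 of 12 libraries.

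**Figure D3:**
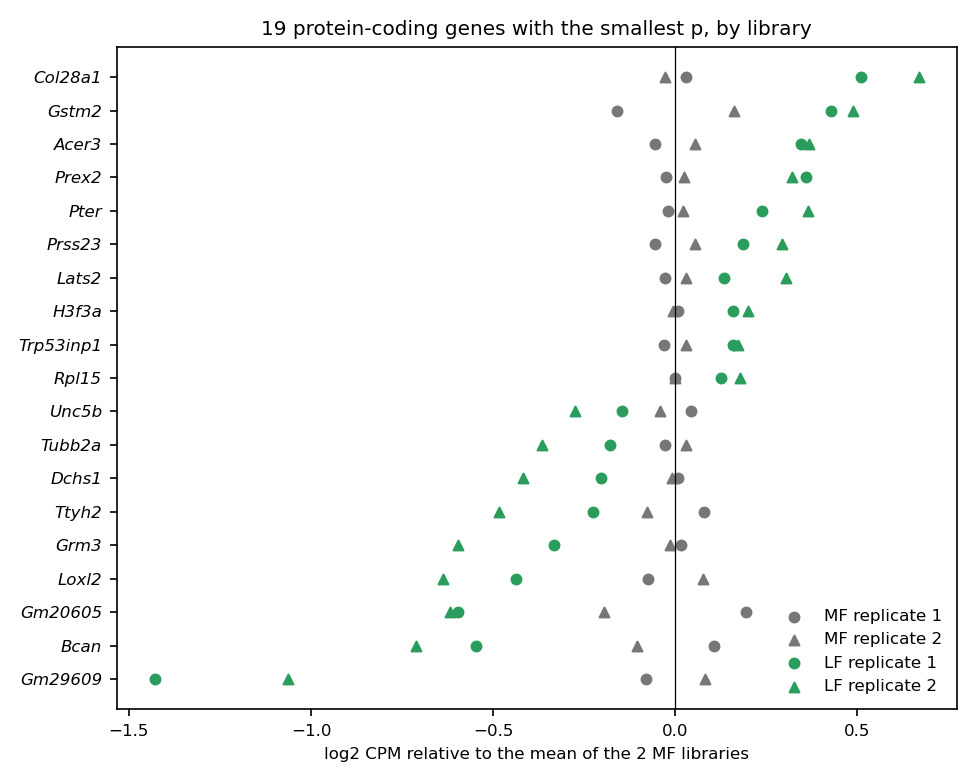
Level of 19 of the 20 protein-coding genes with the smallest p-values in each LF (green) and MF (grey) library, as log2 CPM relative to the mean of the 2 MF libraries. Circles are replicate 1 and triangles replicate 2, and none of these genes passed the adjusted threshold. The lower LF library was replicate 2 in most of the lower genes, among them Bcan, Grm3, Dchs1 and Tubb2a.

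Levels at HF, whose libraries entered the fit above through the filter on low counts, the scaling and the spread, are given side by side. Prex2 was at 32.4 and 31.7 CPM in HF, Gstm2 at 12.6 and 15.5 and Pter at 62.3 and 73.7, each below both MF libraries. Bcan was at 16.5 and 15.2 CPM, Grm3 at 30.1 and 29.1, Dchs1 at 603 and 574 and Tubb2a at 199.8 and 200.1, each above both MF libraries. Gm29609, at 3.26 and 4.22 CPM, lay below both MF libraries as LF did, and H3f3a, at 689 and 737 CPM, above both as LF did. Among the genes higher in LF, the HF levels were 156 and 165 CPM for Prss23, 15.1 and 15.0 for Acer3, 4.13 and 5.28 for Col28a1, 85.6 and 91.7 for Lats2, 433 and 408 for Trp53inp1 and 535 and 539.8 for Rpl15. Among those lower in LF they were 15.5 and 14.6 CPM for Loxl2, 60.1 and 57.7 for Ttyh2, 9.44 and 10.8 for Gm20605 and 362 and 347 for Unc5b. No trend over the 3 doses was tested.

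No difference was detectable in the genes that take up folate. Of 9 tested genes for uptake, retention and export, none was at an unadjusted p under 0.05, and the median log2 fold change was -0.053. Slc19a1, the reduced folate carrier, was at 8.56 and 9.42 CPM in LF and 9.21 and 8.78 CPM in MF (log2 0.00, 95% interval -0.27 to 0.27). Slc46a1, the proton-coupled folate transporter, was at 11.7 and 10.9 CPM in LF and 11.8 and 10.8 CPM in MF (95% interval -0.25 to 0.24). The groups overlapped in both. Folr1, a folate receptor, had no count in any of the 4 libraries, which allows up to 3 counts per library. Fpgs, which adds the glutamates that keep folate in the cell, and Ggh, which removes them, had log2 fold changes of -0.09 and 0.12.

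Of 20 tested genes of the cytosolic folate and methionine cycle, none was at an unadjusted p under 0.05 either (median 0.005), and 18 had a 95% interval within 1.5-fold. Tyms, which makes thymidylate, was at 60.4 and 64.6 CPM in LF and 61.5 and 62.9 CPM in MF (log2 0.01). Methionine synthase, Mtr, had a log2 fold change of 0.03, and Mat2a, which makes S-adenosylmethionine, one of 0.00 (95% interval -0.10 to 0.11). Aldh1l1, which oxidises 10-formyl-tetrahydrofolate and is also a marker of astrocytes, had the lowest value of the list, at 61.3 and 52.2 CPM in LF and 74.7 and 67.6 CPM in MF (log2 -0.33 ± 0.15 SE, 95% interval -0.71 to 0.05). Its groups did not overlap. It did not pass the test (adjusted p = 0.808), but was called lower in LF without the filter on low counts and with the replicate block. Both of these fits leaned more on a spread shared over genes than the main fit did.

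In the mitochondrial branch, 2 of 14 tested genes were at an unadjusted p under 0.05, both lower in LF. Shmt2, which moves carbon from serine to folate, was at 50.3 and 55.9 CPM in LF and 65.9 and 58.1 CPM in MF (log2 fold change -0.22 ± 0.073 SE, adjusted p of 0.669). Mthfd1l, which releases formate, was at 26.1 and 26.6 CPM in LF and 28.4 and 32.4 CPM in MF (log2 fold change -0.21 ± 0.084 SE, adjusted p of 0.717). Mthfd2, the step between them, overlapped between the doses, at 25.3 and 31.8 CPM in LF and 30.1 and 31.7 CPM in MF. The median of the list was -0.039.

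Nucleotide synthesis showed as little. Of 17 genes of purine synthesis, 1 was at an unadjusted p under 0.05 (Pfas, log2 -0.16), and of 22 genes of pyrimidine and deoxynucleotide synthesis none was, with medians of -0.024 and 0.009. All 33 tested genes of the DNA damage response and repair of uracil had 95% intervals within 1.5-fold and none was at an unadjusted p under 0.05. Of 43 replication genes, 1 was higher and 2 were lower at that threshold, among them Pold1, a catalytic subunit of DNA polymerase δ (log2 -0.15), and Mcm3, a subunit of the replicative helicase (log2 -0.10).

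Among genes that spend the methyl group, Dnmt1, the maintenance DNA methyltransferase, was at 315 and 296 CPM in LF and 313 and 315 CPM in MF (log2 -0.04, 95% interval -0.14 to 0.05). Dnmt3a had a log2 fold change of 0.00 (95% interval -0.12 to 0.12). Dnmt3b, at 2.99 and 2.80 CPM in LF and 3.34 and 3.10 CPM in MF, was too low for a narrow bound (95% interval -0.62 to 0.31). Nsun2, which methylates cytosine in RNA, was at 97.3 and 98.8 CPM in LF and 101 CPM in both MF libraries (log2 -0.04, 95% interval -0.15 to 0.06), and Trdmt1, another RNA cytosine methyltransferase, had a log2 fold change of 0.05. Of 12 RNA cytosine methyltransferases and readers, 1 was at an unadjusted p under 0.05, Nop2 (log2 -0.12), which methylates ribosomal RNA. The lowest of them was Nsun7, at 3.45 and 1.99 CPM in LF and 3.63 and 3.85 CPM in MF (log2 -0.47, 95% interval -0.99 to 0.05). Of 16 genes that write, read or erase DNA methylation, 1 was at that threshold, Zbtb33, which binds methylated DNA (log2 0.12). Of 33 other methyltransferases that use S-adenosylmethionine, 1 was, the histone H3 methyltransferase Kmt2d. It was at 109 and 112 CPM in LF and 126 and 120.1 CPM in MF (log2 -0.16 ± 0.051 SE). In TPM its groups overlapped, at 17.8 and 18.4 in LF and 18.1 and 17.1 in MF. In CPM, LF lay below both MF libraries in 13 of the 33 and above both in 3. Over all genes tested these shares were 17.8% and 17.4%. The median of the list was -0.022.

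**Figure D4:**
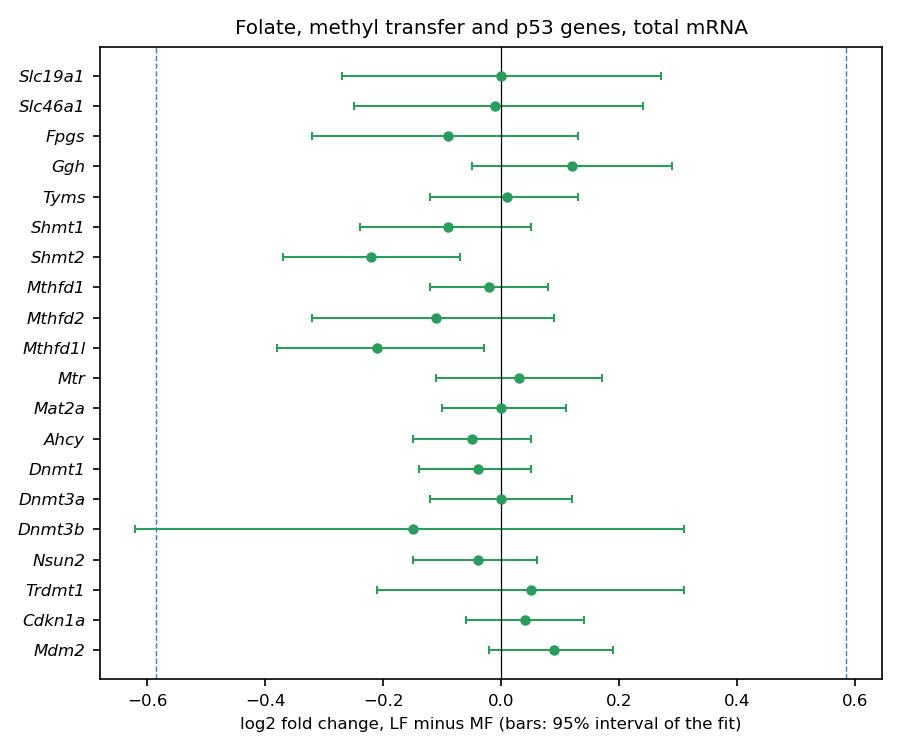
Log2 fold change of LF against MF for genes of folate uptake and metabolism, methyl transfer and p53, with bars for the 95% interval of the fit and dashed lines at 1.5-fold. Each interval except that of Dnmt3b lies between the dashed lines, and those of Shmt2 and Mthfd1l do not include 0.

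No member of the other lists was called either, and the counts below are at an unadjusted p under 0.05, beside 2.95% of all genes higher and 3.32% lower. In the chondroitin sulfate and tenascin matrix of the niche, 2 of 26 genes were higher and 6 lower, with a median of -0.093. Besides Bcan, Ncan (neurocan) was lower, at 167 and 150 CPM in LF and 195 and 181 CPM in MF (log2 fold change -0.25 ± 0.062 SE, adjusted p of 0.501). Hapln1, a protein that links such proteoglycans to hyaluronan, went the other way, at 3.45 and 4.33 CPM in LF and 2.81 and 2.77 CPM in MF (log2 0.48 ± 0.21 SE). Relative to the mean of MF, on the scale of log2(CPM + 0.5), the median member was at -0.042 in LF replicate 1 and -0.141 in LF replicate 2. Among collagens and basement membrane genes, 5 of 28 were lower and none higher (median -0.035), with Lama5, a laminin chain, at log2 -0.18 and Col27a1 at log2 -0.51.

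In the ATF4 and amino acid stress response, 6 of 37 genes were lower and none higher (median -0.038). Aldh18a1, which starts proline synthesis, had a log2 fold change of -0.14. In glycolysis, 4 of 23 were lower and none higher (median -0.025), with Aldoa at 359 and 348 CPM in LF and 396 and 385 CPM in MF (log2 -0.14 ± 0.046 SE) and Gpi1 at log2 -0.17. In cholesterol synthesis and uptake, 3 of 24 were lower and none higher (median -0.049), among them Lss, which closes the sterol rings (log2 -0.18). In the feedback and target genes of the ERK pathway, 2 of 24 were lower and none higher (median -0.054). These were Ier3, at 17.2 and 16.5 CPM in LF and 25.3 and 20.6 CPM in MF (log2 -0.44 ± 0.11 SE), and Spry4, an inhibitor of the pathway (log2 -0.15).

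Of 36 genes of p53 and its targets, 27 had a positive and 9 a negative log2 fold change (median 0.062). Over all 13912 genes tested, 7018 were positive and 6893 negative. At the threshold, 3 of the 36 were higher and 1 lower. The LF libraries lay above both MF libraries in 17 of the 36 and below both in 2, against 17.4% and 17.8% of all genes. Ccng1, a cyclin that p53 induces, was at 964 and 1004 CPM in LF and 872 and 896 CPM in MF (log2 fold change 0.15 ± 0.043 SE, adjusted p of 0.549). Cdkn1a, the p21 inhibitor of the cell cycle, overlapped between the doses, at 447 and 476 CPM in LF and 465 and 430 CPM in MF (log2 0.04, 95% interval -0.06 to 0.14). Mdm2, which degrades p53, had a log2 fold change of 0.09. Gadd45a, a stress gene, went the other way, at 11.1 and 8.83 CPM in LF and 15.3 and 13.4 CPM in MF (log2 fold change -0.52 ± 0.13 SE, adjusted p of 0.432). As log2(CPM + 0.5) relative to MF, the median member was at 0.018 in LF replicate 1 and 0.086 in LF replicate 2, higher in the second.

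In the Notch pathway, 3 of 29 genes were higher and 2 lower (median -0.017). Nrarp, a feedback inhibitor of Notch signalling, had the largest fold, at 2.81 and 4.24 CPM in LF and 1.26 and 2.44 CPM in MF (log2 0.93 ± 0.33 SE). Notch1 was at 694 and 703 CPM in LF and 760 and 728 CPM in MF (log2 -0.09). Of 20 immediate early genes, 1 was higher (Klf4, log2 0.44) and 2 were lower, among them Jun (log2 -0.21). Ribosomal protein genes were measured tightly, with 70 of 79 within 1.2-fold, and 2 were higher and none lower (median 0.024). Their median on that scale was -0.035 in LF replicate 1 and 0.091 in LF replicate 2, on opposite sides of MF.

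**Figure D5:**
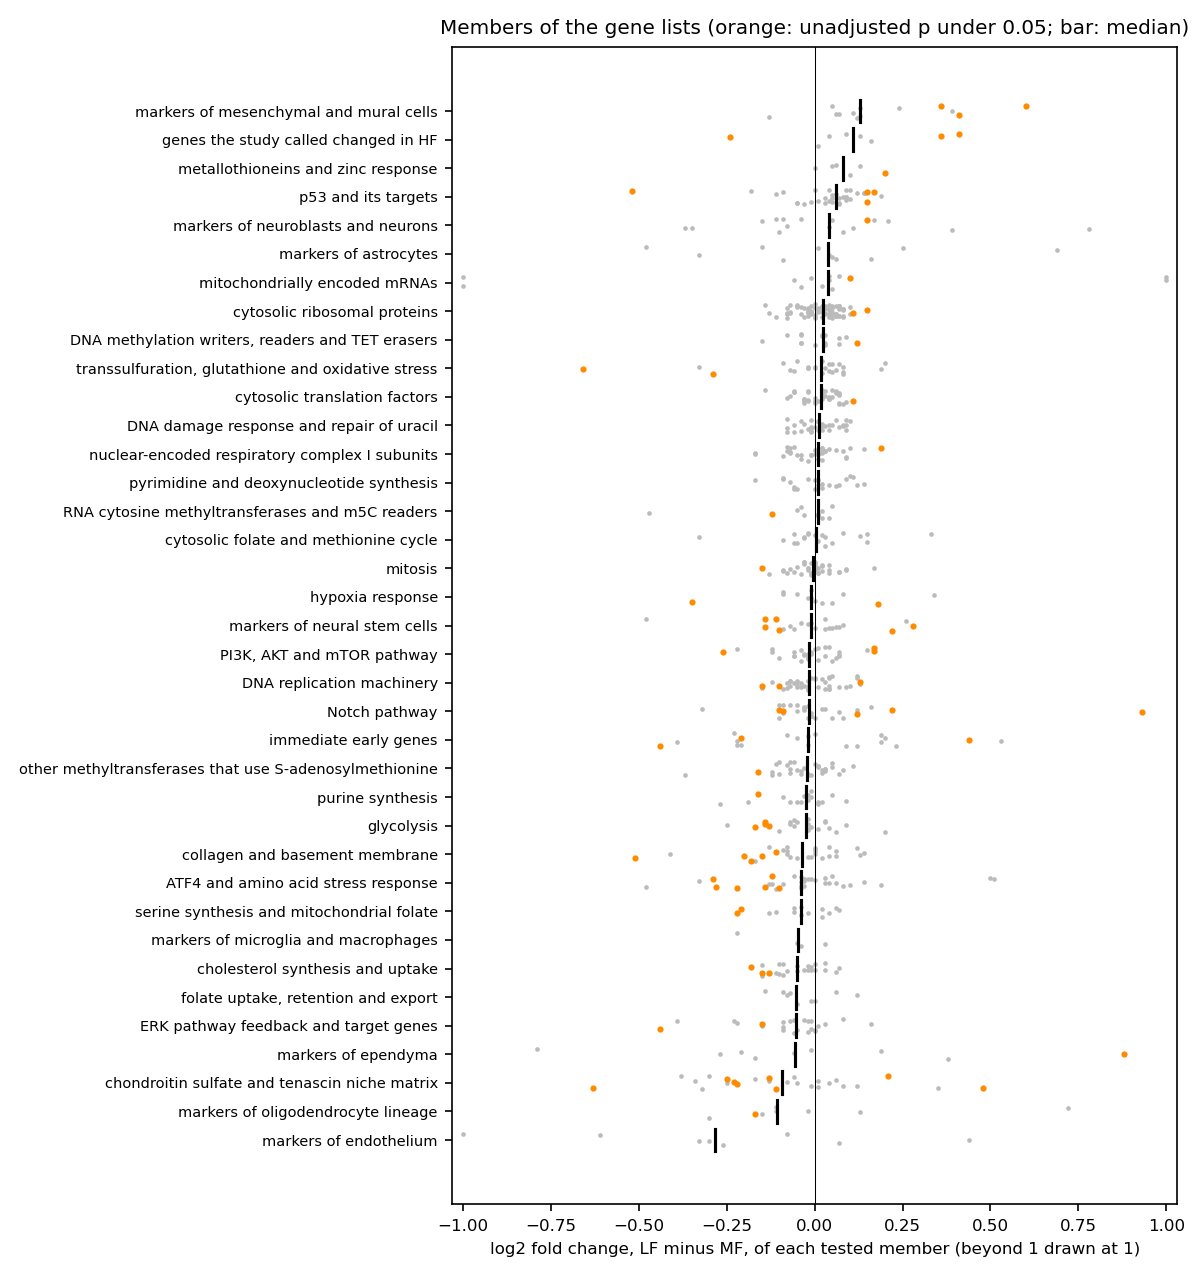
Log2 fold change of LF against MF for each tested member of each gene list or cell type marker list with at least 3 tested members. Points are genes, orange marks an unadjusted p under 0.05, black bars are medians, and 5 points beyond 1 in size are drawn at the edge. The median was 0.128 for markers of mesenchymal and mural cells, -0.093 for the niche matrix and -0.283 for markers of endothelium, which summed to at most 5.47 TPM.

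Markers of NSCs moved both ways. Nes was at 1423 and 1307 CPM in LF and 1531 and 1478 CPM in MF (log2 fold change -0.14 ± 0.048 SE, adjusted p of 0.675), and Vim, another intermediate filament, was at 2426 and 2450.1 CPM in LF and 2656 and 2597 CPM in MF (log2 -0.11). Id4, a transcription regulator of quiescent NSCs, had a log2 fold change of 0.28 ± 0.097 SE. In all, 2 of 22 were higher and 4 lower (median -0.01). In such bulk samples fewer cells of a type and less RNA per cell cannot be told apart.

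Among markers of other cells, those of mesenchymal and mural cells had 12 of 13 log2 fold changes above 0, against 7018 of all 13912 genes. At the threshold 3 were higher, and the median was 0.128. Fbln5, an elastic fibre protein, was at 32.8 and 37.3 CPM in LF, 24.5 and 28.3 in MF and 14.3 and 19.9 in HF, and Ogn, a matrix proteoglycan, at 54.6 and 60.5 CPM in LF, 42.2 and 47.7 in MF and 27.1 and 35.5 in HF. Their log2 fold changes in LF against MF were 0.41 ± 0.14 and 0.36 ± 0.12 SE, and neither passed. The study reported both as lower in HF than in MF, so their order over the doses is no independent trend. The summed level of the 18 markers was 613 and 665 TPM in LF and 578 and 610 TPM in MF. On the scale of log2(CPM + 0.5) relative to MF, the median marker was at 0.000 in LF replicate 1 and 0.247 in LF replicate 2. The part of these cells in the differences above was not tested. Of 17 tested markers of neurons 1 was higher (Map2, log2 0.15), of 8 of the oligodendrocyte lineage 1 was lower (Olig1, log2 -0.17), and of 11 of astrocytes, 4 of microglia and 8 of endothelium none was at the threshold.

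Of 8 genes that the study called changed between HF and MF, 2 were higher and 1 lower at the unadjusted threshold in LF against MF and none was called. The 2 were Fbln5 and Ogn, already counted among the 3 higher markers of mesenchymal and mural cells. The list was chosen by the study on MF libraries that enter this comparison too, so its direction is not independent evidence. The gene that was lower was Ednrb, an endothelin receptor, at 29.2 and 28.5 CPM in LF, 35.2 and 32.9 in MF and 51.4 and 48.3 in HF (LF against MF log2 -0.24 ± 0.074 SE, adjusted p = 0.632). Ptch1, the Hedgehog receptor, was at 363 and 374 CPM in LF and 335 and 359 CPM in MF (log2 0.09), and Slit3, an axon guidance cue, at 41.8 and 45.5 CPM in LF and 40.6 and 45.9 CPM in MF (log2 0.01).

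The polysome libraries of LF and MF share no library with the comparison, but may come from the same cultures, which the labels do not state. For the 20 genes and Gm6851, chosen by p in total mRNA, the sign of the difference was the same in 17 of the 21, in 13 without polysome LF replicate 2 and in 18 without polysome LF replicate 1. Over all 13812 genes tested that had polysome counts the sign was the same in 59.7%, in 55.2% and in 59.5%. Polysome LF replicate 2 stood apart, with 23.2% and 19.5% of 12093 genes more than 2-fold from polysome MF replicates 1 and 2, against 2.27% and 2.67% for polysome LF replicate 1. Bcan was at 5.89 and 1.89 CPM in polysome LF and 9.33 and 7.10 CPM in polysome MF. Prss23 was at 384 and 385 CPM in polysome LF and 305 and 327 CPM in polysome MF, and Pter at 119 and 199.8 against 85.5 and 99.2 CPM. These genes did not overlap between the doses and lay on the same side as in total mRNA. Gm6851, Col28a1 and Rpl15 lay on the other side, also without overlap.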

How the data were processed

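Each library came with a gene table of expected counts, TPM, FPKM and effective lengths that the authors made with RSEM 1.3.0 after alignment with Bowtie2 2.2.9 to mm10, per the labels. The deposited expected counts divide read pairs that fit several genes by likelihood, so copies of a gene can trade counts. Deposited TPM and FPKM are scaled for length and library size by the authors; TPM was used only for levels and FPKM was not used. The other deposited measurement, effective length, was not used. For the RSEM strand option, the setting is not given in the sources used here.

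Expected counts were rounded and tested with edgeR 4.0.16 in R 4.3.3 (filterByExpr, TMM, robust quasi-likelihood F test, Benjamini-Hochberg adjustment). The fit held the 6 total mRNA libraries with dose as the only term, so HF added to the estimate of the spread (3 residual degrees of freedom, biological coefficient of variation 0.0433). Calls needed an adjusted p below 0.05 together with more than a 1.2-fold difference, the thresholds of the study's methods. Every adjusted p is from this fit, except that of Gm6851 summed with its copies, which is from the same test on the summed counts. Standard errors and 95% intervals come from the fold change, its F statistic and the fitted degrees of freedom. The script was tested on simulated data. Read pairs carried no molecular identifiers, so the floors cover counting error only.

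Genes named were every gene called, the 10 smallest p-values on each side among protein-coding genes with at least 1 CPM, a panel of 35 genes and, per list, up to 2 members with the smallest p on each side. A few of these genes are not reported here. The 29 gene lists and 8 marker lists are described by counts and medians without a test. Members and lists were chosen with earlier results of these data known. The replicate numbers were not used as pairs (correlation of deviations -0.0775 for LF and MF, 0.249 for LF and HF and -0.0626 for MF and HF). With so few libraries these correlations cannot exclude a shared batch or culture. Names came from GENCODE M21, which matched 42548 of 43432 identifiers. Copies were transcripts of at least 95% identity on the same strand over 80% of the shorter transcript and at least 150 bases. A chi-square test of counts found more than sampling noise between replicates (ratio to degrees of freedom 5.22 for LF and 2.85 for MF). Alternatives used DESeq2 1.42.0 and limma 3.58.1.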

Additional observations from a re-analysis of the deposited data

Results flagged for a closer look

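In 15 of the genes reported, LF and MF did not overlap in either fraction and lay in opposite order in total and polysome mRNA. The genes named were in part chosen by p in total mRNA. Over all genes tested, the groups did not overlap in total mRNA in 35.2%. The share apart in opposite order was not counted over all genes, so the 15 have no background to be read against. The difference between the fractions was not tested, and polysome LF replicate 2, which stood apart, enters each of these polysome values. Log2 differences (LF minus MF) are given for total mRNA and then, on the log2(CPM + 0.5) scale of the group means, for polysome mRNA. They were 8.19 and -2.49 for Gm6851, the copy of Pin4, 0.59 and -0.58 for Col28a1, and 0.15 and -0.57 for Rpl15, which has a copy, Rpl15-ps3, without a difference over 615 bases. They were -0.15 and 0.48 for Dnmt3b.

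Of genes taken from the lists, 2 were higher in total mRNA at an unadjusted p under 0.05 in edgeR, with 0.93 and -1.53 for Nrarp and 0.20 and -1.09 for the metallothionein Mt2, and Vim was lower, with -0.11 and 0.05. The others were not at that threshold in total mRNA. They were 0.50 and -1.02 for Trib3, a pseudokinase of the ATF4 response, 0.09 and -0.44 for Ldhb and -0.08 and 0.60 for Rpl5. They were -0.09 and 0.21 for Higd1a, -0.15 and 0.27 for Slc1a2 and -0.13 and 0.62 for Col3a1. Erg, at -1.29 and 0.17, and Dnah5, at -0.79 and 0.21, were at under 1 CPM in each of these libraries. Trib3 was low in total mRNA, at 1.24 and 1.53 CPM in LF and 1.21 and 0.751 CPM in MF. The 95% interval of its log2 fold change there was -0.27 to 1.28. Nrarp was low in polysome mRNA, at 0.51 and 0.165 CPM in LF and 2.03 and 1.82 CPM in MF.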

How the results depend on the processing

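The count of 1 called gene was kept with RLE size factors, with a filter of 1 CPM in 2 libraries and with limma voom, which called the same gene, Gm6851. It was 2 with only the LF and MF libraries (Gm6851 and Gm29609), 2 with DESeq2 on 6 libraries and 2 with DESeq2 on the LF and MF libraries (Dchs1 and Gm6851). It was 0 with protein-coding genes only, 0 without the robust option and 0 with the named genes summed with their copies, chosen after the data were seen. Without a filter on low counts it was 50 (16 higher). In that fit the median gene took its spread from the shared trend (prior degrees of freedom infinite, against 16.27 in the main fit). Leaving out a library gave 1 to 70 calls. Without LF replicate 1 there were 70 (11 higher), without LF replicate 2 there were 9, without HF replicate 2 there were 3 and without HF replicate 1 there were 2. Without MF replicate 1 the 1 call was Gm27029 and without MF replicate 2 it was Tom1. The fits that leave out an LF or MF library assume that the lone library varies like the other doses. Genes at an unadjusted p under 0.05 numbered 872, and 297 and 234 with DESeq2 on 6 and on 4 libraries, and 436 to 1419 without a library, the ends being without MF replicate 1 and without LF replicate 1.

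The replicate block gave 36 calls (10 higher), 1033 genes at an unadjusted p under 0.05 and 79.0% of the genes within 1.5-fold. Its biological coefficient of variation was 0.0405, against 0.0433 in the main fit. The libraries share only a number. The correlation of their deviations was below 0 for LF and MF and for MF and HF and 0.249 for LF and HF. These values cannot settle whether the libraries were paired, and the block is not read as a paired design. Genes called both without a filter and with the block included Bcan, Grm3, Dchs1, Loxl2, Ttyh2 and Tubb2a, lower in LF. Prex2, Pter and Gstm2, higher in LF, were called in both too. Both fits used the same libraries and leaned more on a spread shared over genes (median prior degrees of freedom infinite and 35.78, main fit 16.27). Their agreement is thus no separate evidence for these genes. The share within 1.5-fold was 78.2% and 78.5% to 79.2% in the alternatives. Of 181 named genes tested, 29 changed sign in at least 1 alternative, none called in either fit and none above 0.29 in size on the log2 scale. Of 181 named genes, 126 had the same sign in polysome mRNA, against 59.7% of all 13812 genes, and 119 and 129 without polysome LF replicate 2 and 1. With 2 libraries per dose, genes under 1 CPM could not be bounded.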
